A study of Mus musculus with 2 samples.

Results

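The enzymes that turn glucose into lactate or carbon dioxide were followed in the polysomes of the neonatal mouse brain, as 37 genes of glycolysis, lactate dehydrogenase, the pyruvate dehydrogenase complex, the tricarboxylic acid (TCA) cycle and the malate-aspartate shuttle. The members were picked by gene symbol, taken from the transcript names of the deposited table, and the rule uses no measured value. All 37 symbols were found, each with 1 gene identifier, among 45578 genes, and together they had 204 of the 109463 transcripts. The samples were brains of control mice at postnatal day 5 on the FVB background, with genotype Smn+/-; SMN2tg/0, so these controls were heterozygous for the Smn deletion and carried a human SMN2 transgene (the Taiwanese line). The 2 samples were biological replicates of 1 group, and no other genotype was analysed here. Ribosome profiling was used, in which RNase digests the RNA that ribosomes do not cover and the protected fragments (footprints) are sequenced. Only fractions of a sucrose gradient that held polysomes were digested.

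Glycolysis splits glucose into pyruvate in the cytosol and yields a little ATP at once. Pyruvate is either reduced to lactate by lactate dehydrogenase or carried into mitochondria, where the pyruvate dehydrogenase complex makes acetyl-CoA for the TCA cycle. The brain depends heavily on glucose, and several of its enzymes exist as isozymes that differ between neurons, astrocytes and other tissues. The neonatal brain also burns ketone bodies from milk, and its oxidative capacity is still growing.

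Replicate 1 was sequenced to 1866831 assigned footprints, and replicate 2 to 5261878. Levels are given as CPM, the count relative to the library total, or, between genes, as footprint density, which is the CPM divided by the kilobases of the gene's longest annotated coding sequence. Density mixes the amount of mRNA with how well it was translated, since matched RNA abundance was not analysed here. In a whole brain, fewer cells of a type and less RNA per cell cannot be told apart. Intervals are Clopper-Pearson 95% intervals and cover counting error only, as PCR copies are not independent molecules.

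Markers of brain cells were present. The 6 neuronal markers took 0.493% of the footprints in replicate 1 and 0.388% in replicate 2, the 5 astrocyte markers 0.150% in each, and the 5 oligodendrocyte markers 0.0638% and 0.0967%. Among markers of other tissues, the liver genes Alb and Fgb had 0 footprints in both libraries and Apoa1 had 1 and 6. Of the 4 muscle genes, Ckm had 3 and 4, Acta1 140 and 264, Myh3 1 and 20, and Tnnt3 1 and 10. The red cell markers Hbb-bs, Hba-a1 and Alas2 had 1595, 1182 and 20 footprints in replicate 1 and 3042, 2419 and 91 in replicate 2.

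The 37 enzymes together took 1.09% of the footprints in replicate 1 (interval 1.08 to 1.11) and 1.00% in replicate 2 (0.993 to 1.01), a mean of 1.05% ± 0.0635 (SD, n = 2). The 14 glycolytic genes carried 0.534% ± 0.0351, the 12 genes of the TCA cycle proper 0.224% ± 0.0103, and the 5 genes of the pyruvate dehydrogenase complex 0.0684% ± 0.00132. Lactate dehydrogenase added 0.0875% ± 0.00545 from 2 genes. The 19 genes of cytosolic enzymes took 0.765% and 0.697% of the footprints in the replicates, and the 18 genes of mitochondrial enzymes 0.326% and 0.304%.

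Most of the enzymes were densely covered. Their median footprint density was 141, against 23.5 over the 13349 tested genes with a coding sequence, and 35 of the 37 lay above that median. Of all tested coding genes, the tenth with the highest density began at 150.4 and held 18 of the 37. The range was wide, from 793 ± 68.4 for Aldoa to 2.86 ± 0.741 for Hk2 (SD, n = 2), a ratio of 277. The order of the enzymes was nearly the same in both libraries, with Spearman's rho of 0.98 across 37 genes, which are not independent replicates.

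**Figure D1:**
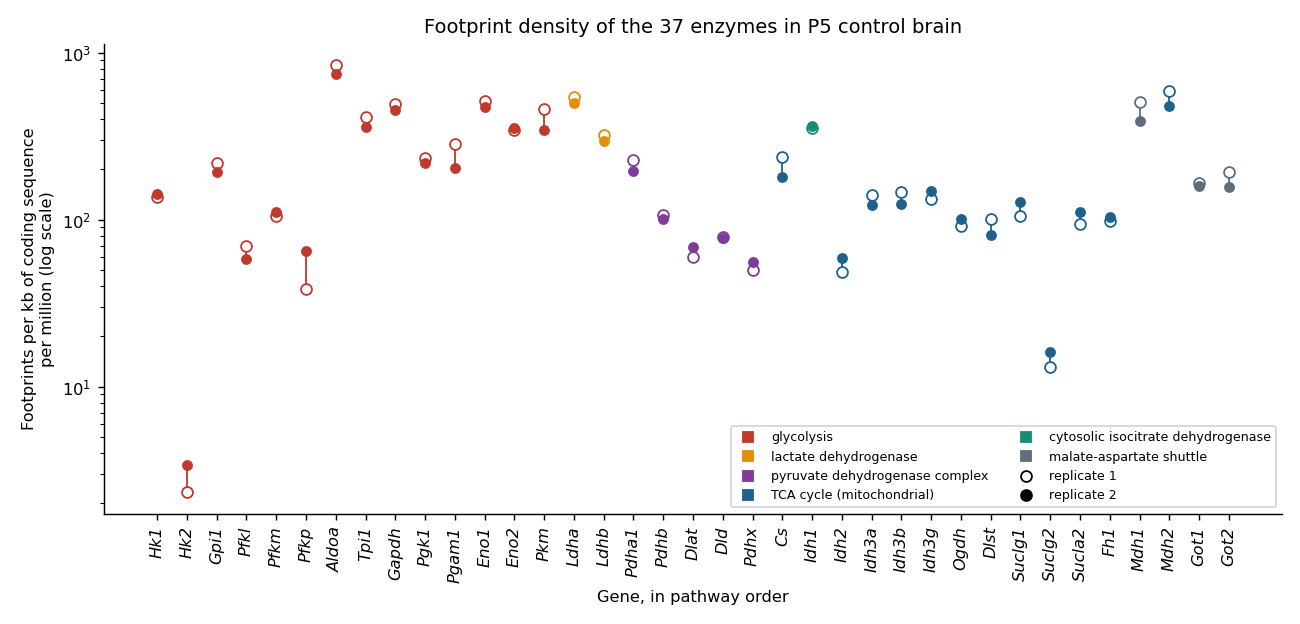
Footprint density on a log scale, for each of the 37 enzymes in pathway order, with replicate 1 as open and replicate 2 as filled circles and colours for the part of the pathway. Aldoa was highest at 841 and 744, and Hk2 and Suclg2 lay below all others.

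Entry into glycolysis rested on hexokinase 1. Hexokinase traps glucose by phosphorylation, and Hk1 (ENSMUSG00000037012) encodes the form bound to brain mitochondria, whereas Hk2 encodes the form typical of muscle and fat. For Hk1, 722 footprints were counted in replicate 1 and 2133 in replicate 2, or 387 CPM with an interval of 359 to 416 and 405 CPM with one of 388 to 423. Hk2 had 12 and 49 footprints. The density ratio of Hk1 over Hk2 was 58.4 in replicate 1 (33.2 to 114) and 42.2 in replicate 2 (31.8 to 57.3). With the highest coding transcript of each gene the mean log2 ratio was 4.56 in place of 5.63. Hk1 made up 97.0% ± 0.319 of the summed density of the 4 hexokinase genes compared (SD, n = 2), and Hk2 1.98% ± 0.442. Hk3, with 7 and 19 footprints, and Hkdc1, with 1 and 1, made up the remainder.

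The next steps had moderate densities. Gpi1, which turns glucose-6-phosphate into fructose-6-phosphate, stood at 219.8 in replicate 1 and 192 in replicate 2. Phosphofructokinase, the committed and most regulated step of glycolysis, is built from muscle-type (Pfkm), liver-type (Pfkl) and platelet-type (Pfkp) subunits. Pfkm led with densities of 105 and 111, and took 48.4% ± 1.18 of the density of the 3 genes. Pfkm exceeded Pfkl in both libraries, by 1.5 times (interval 1.30 to 1.74) and 1.92 times (1.76 to 2.11), but with the highest coding transcript of each gene the mean log2 ratio was 0.08 in place of 0.77. Pfkp, named for platelets but also an abundant subunit of brain, had the lower density of the pair with Pfkl in replicate 1 and the higher in replicate 2, at 38.4 against 69.7 and then 65.0 against 57.8. The ratio of Pfkp over Pfkl was thus 0.551 (0.454 to 0.667) in replicate 1 and 1.12 (1.02 to 1.25) in replicate 2, and their order was not settled by these libraries. On coding transcripts alone Pfkp lay below Pfkl on average, at a log2 ratio of -1.17.

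Aldolase had the highest density of all steps once its isozymes and all their transcripts were summed, among the families compared here. No family sums were taken with single transcripts, so this rank holds for summed transcripts only. Aldolase splits fructose-1,6-bisphosphate into triose phosphates. The brain uses the widely expressed Aldoa together with Aldoc, an isozyme enriched in astrocytes and Purkinje cells. The footprints of Aldoa (ENSMUSG00000030695) numbered 1974 and 4924, which is 1057 CPM with an interval of 1011 to 1105 and 936 CPM with one of 909.8 to 962. Aldoc, which is not among the 37, had 868 and 2197 footprints. Aldoc over Aldoa was 0.506 (0.467 to 0.548) and 0.514 (0.488 to 0.540) in density, so Aldoc supplied 33.8% ± 0.231 of the pair. This share rested on summing all transcripts of a gene, because with the highest coding transcript of each the log2 ratio was -0.01 in place of -0.97. Aldoa and Aldoc in sum reached 1197 ± 99.1, compared with 144 ± 5.25 for the hexokinases and 223 ± 14.8 for phosphofructokinase.

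The reactions from triose phosphate to pyruvate were carried by enzymes of high density. Tpi1, which interconverts the triose phosphates, stood at 415 and 358. Gapdh, which oxidises glyceraldehyde-3-phosphate, had densities of 491 and 453. Pgk1, the first enzyme of the pathway to make ATP, reached 233 and 219, and Pgam1, which moves the phosphate group on, 286 and 204. Both genes have named copies in the table, whose counts are given further on. Pkm, the pyruvate kinase of all tissues but liver and red cells, had densities of 458 and 345. Its footprints were divided nearly evenly between the annotated transcripts Pkm-201, with 647 and 1387, and Pkm-202, with 719 and 1509. Both have a coding sequence of 1596 nucleotides, and the splice forms M1 and M2 were not told apart.

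Enolase was divided between its widespread and its neuronal form. It makes phosphoenolpyruvate, Eno1 is the widespread form, and Eno2, neuron-specific enolase, replaces it as neurons mature. Eno1 had 1250 footprints in replicate 1 and 3249 in replicate 2, and Eno2 had 845 and 2425. The coding sequences are equally long, at 1305 nucleotides. Eno2 over Eno1 was 0.676 (interval 0.619 to 0.738) and 0.746 (0.708 to 0.787), so Eno1 exceeded Eno2 in both libraries and Eno2 held 41.4% ± 1.71 of the family. On coding transcripts alone the log2 ratio fell from -0.49 to -1.20, as just 40.9% of Eno2 footprints lay on such transcripts against 68.1% of those of Eno1. The muscle form Eno3 had 6 and 14 footprints and 0.266% ± 0.0279 of the density.

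Of the 10 isozyme pairs compared, lactate dehydrogenase had the smallest SD of the log2 ratio, at 0.00204. This SD is of 2 values and is no measure of precision, as the counting intervals of the ratios, given below, were far wider. Ldha encodes the subunit that is usually linked to lactate production and Ldhb the subunit prominent in heart and neurons. Ldha had 1100 and 2841 footprints and Ldhb 606 and 1562, which gave densities of 543 and 497 for Ldha and of 323 and 295 for Ldhb. Ldhb over Ldha was 0.595 (interval 0.538 to 0.658) in replicate 1 and 0.594 (0.558 to 0.632) in replicate 2. The order turned when the highest coding transcript alone was counted, with a log2 ratio of 0.31 in place of -0.75, since Ldhb-001 held 52.2% of its gene's footprints and Ldha-002 24.4%. The testis form Ldhc had 0 footprints in both libraries, where 3 footprints would give 1.61 and 0.571.

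**Figure D2:**
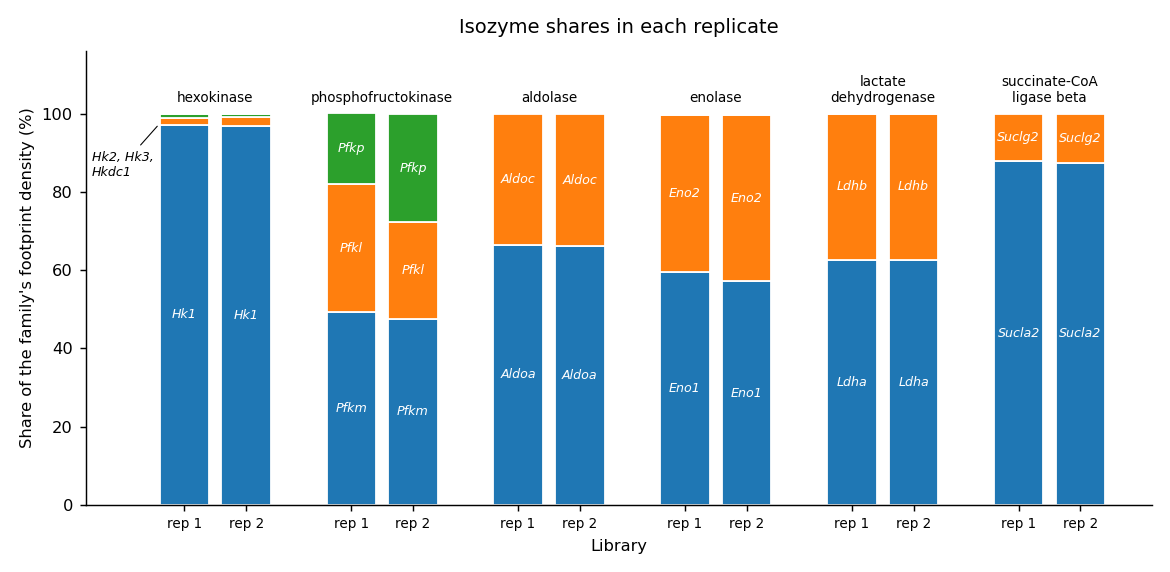
Share of the summed footprint density of 6 isozyme families, in percent, in each replicate, with 1 stacked bar per library and 1 colour per gene within a family. Hk1 filled about the whole hexokinase bar at 97.2% and 96.8%, Ldhb took 37.3% in both libraries, and Pfkp took 18.1% in replicate 1 and 27.8% in replicate 2.

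Isozymes of other tissues were nearly silent. Of 14 genes listed as tissue-restricted relatives of the members, Aldoc was the 1 with a density above 10. The testis genes Pgk2 and Pdha2 had 0 footprints in both libraries, and 3 footprints would give at most 1.37 in replicate 1. Gapdhs, the sperm form, had 0 and 1. The liver and red cell gene Pklr had 2 and 13 footprints, or 0.274% ± 0.197 of pyruvate kinase density, and the muscle gene Pgam2 had 4 and 12, or 1.21% ± 0.333 of phosphoglycerate mutase density. Counts were likewise low for Eno4 (6 and 16), Ldhd (5 and 12), Got1l1 (2 and 4) and Mdh1b (1 and 1).

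Genes named as copies of the enzymes also held footprints. The table had 13 such copies of 9 of the enzymes, by symbol or through RefSeq synonyms, all annotated as processed pseudogenes but Eno1b and Pgk1-rs7, which are annotated as protein coding. Their sequences were not compared with those of the enzymes, and whether their footprints came from the enzymes' messages was not tested. Pgam1 was affected most. It had 409 footprints in replicate 1 and 823 in replicate 2, while its pseudogenes Pgam1-ps2, with 360 and 760, and Pgam1-ps1, with 125 and 320, together held 55.5% ± 1.77 of the combined count (SD, n = 2). With them, its density rose from 245 to 549, by 2.24 times.

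The copies of Pgk1, Got2 and Eno1 held 30.2% ± 0.866, 30.3% ± 3.05 and 20.4% ± 0.503 of the combined counts. Pgk1-rs7 had 229 and 641 footprints, close to the 241 and 633 of the main coding transcript Pgk1-001 and the 236 and 631 of Pgk1-003, an annotated target of nonsense-mediated decay. Got2-ps1 had 182 and 510 footprints, and Eno1b 313 and 850. With Eno1b counted as Eno1, the mean log2 ratio of Eno2 over Eno1 went from -0.49 to -0.82.

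For Gapdh the 2 named copies held 13.9% ± 0.0815 of the combined count, and for Ldhb and Ldha 7.42% ± 0.521 and 6.60% ± 0.652. Copies of Aldoa and Tpi1 held 1.81% ± 0.0456 and 1.09% ± 0.0594. Copies that carry no name of their enzyme were not counted, so these shares are lower bounds of what copies hold. How the authors assigned footprints that match several transcripts is not given in the sources used here, and levels of these 9 enzymes are uncertain to this extent. Counting the named copies raised the share of all 37 enzymes from 1.05% to 1.12%.

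**Figure D3:**
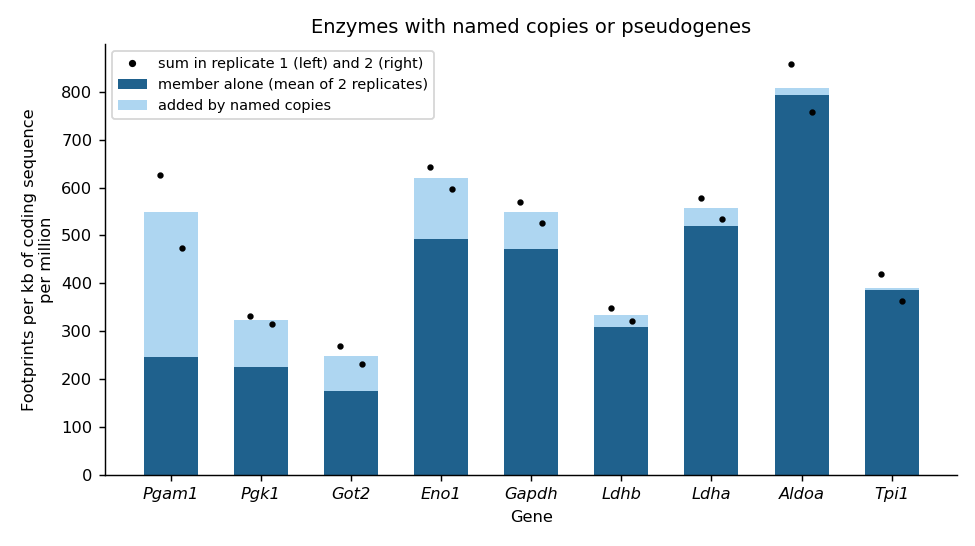
Mean footprint density of the 9 enzymes with named copies (dark bars), the amount added by the copies (light bars), and the sum in replicate 1 and replicate 2 (left and right points). Pgam1 rose most, from 245 to 549, whereas Tpi1 moved from 386 to 391.

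At the entry to mitochondria, the subunits of the pyruvate dehydrogenase complex differed in density. The complex joins E1 (Pdha1 and Pdhb), which removes carbon dioxide from pyruvate, E2 (Dlat), which passes on the acetyl group, E3 (Dld), which restores the lipoyl arm and is shared with other complexes, and Pdhx, which ties E3 to the core. Pdha1 had densities of 227 and 197, and Pdhb of 107 and 101. Pdha1 over Pdhb was 2.11 and 1.96, a mean of 2.04 ± 0.111 (SD, n = 2). In the assembled E1 both chains are present in equal number. On coding transcripts alone the log2 ratio was 0.33 in place of 1.02. Pdhb has 1 annotated transcript, whereas 34.5% of Pdha1 footprints were counted on transcripts annotated as retained intron, which also hold exons.

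The core of the complex was less covered than E1. Dlat stood at 60.0 and 68.2, Pdhx at 50.2 and 55.9, and Dld at 79.1 and 78.1. Dlat over Pdhx was 1.21 ± 0.0167. With coding transcripts alone the order of Dlat and Pdhx turned, at a log2 ratio of -0.22, so it rested on how transcripts were summed.

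Of the 12 TCA cycle genes among the 37, Mdh2 and Cs had the highest densities, and most of the others had mean densities from 91.1 for Dlst to 141 for Idh3g; Idh2 and Suclg2 lay lower. Cs, which condenses acetyl-CoA with oxaloacetate, had 622 and 1332 footprints on its 1 annotated transcript, and densities of 239 and 181. Mdh2, which closes the cycle by regenerating oxaloacetate, had 1127 and 2567 footprints and reached 594 and 479.7. Fh1, the fumarase, stood at 98.4 and 104. Oxoglutarate dehydrogenase had 91.1 and 101 for its E1 subunit Ogdh and 101 and 80.9 for its E2 subunit Dlst, so their order differed between the libraries.

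The subunits of NAD-dependent isocitrate dehydrogenase, the form that drives the cycle, were alike in density. Idh3a stood at 140.1 and 122, Idh3b at 147 and 125, and Idh3g at 134 and 149. Idh3a over Idh3b was 0.967 ± 0.0150, and Idh3g over Idh3b was 1.05 ± 0.194 (SD, n = 2). The enzyme is known to hold the alpha chain in excess over beta and gamma. This evenness depended on summing transcripts: on coding transcripts alone the log2 ratios were 0.60 for Idh3a over Idh3b and -1.17 for Idh3g over Idh3b. Of the Idh3g footprints 57.6% were counted on transcripts annotated as retained intron, and Idh3a has 1 annotated transcript.

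In succinate-CoA ligase the ATP-forming beta chain prevailed. The alpha chain, Suclg1, pairs either with Sucla2, which makes ATP and prevails in brain, or with Suclg2, which makes GTP and prevails in liver and kidney. Sucla2 had 246 and 823 footprints and Suclg2 had 32 and 110. Sucla2 over Suclg2 was 7.19 (interval 4.96 to 10.7) and 7.0 (5.73 to 8.62) in density, and Sucla2 supplied 87.6% ± 0.208 of the beta chain density. With the highest coding transcript of each gene the mean log2 ratio was 1.65 in place of 2.83. The densities of Suclg1, at 105 and 128, were close to the beta chains in sum, at 108 and 128, with ratios of 0.973 and 0.994. On coding transcripts alone the log2 ratio of alpha over both beta chains was -0.62.

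Enzymes present in both compartments were compared as pairs. Cytosolic Mdh1 and Got1 and mitochondrial Mdh2 and Got2 together move reducing equivalents of NADH into mitochondria as the malate-aspartate shuttle. Mdh1 had 950 and 2059 footprints and densities of 506 and 389. Mdh2 over Mdh1 was 1.17 (interval 1.07 to 1.28) and 1.23 (1.16 to 1.31), but with coding transcripts alone the mean log2 ratio turned from 0.27 to -0.16. Got1 stood at 165 and 159 and Got2 at 192 and 156. Their ratio of 1.17 (1.02 to 1.34) in replicate 1 and 0.977 (0.896 to 1.07) in replicate 2 left no order, whereas with Got2-ps1 added the mean log2 ratio of Got2 over Got1 was 0.62 in place of 0.09.

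The NADP-dependent isocitrate dehydrogenases leaned to the cytosol. Idh1, which supplies NADPH in cytosol and peroxisomes, had 821 and 2377 footprints, and mitochondrial Idh2 had 123 and 421. Idh1 had densities of 353 and 363 against 48.5 and 58.9 for Idh2. Idh2 over Idh1 was 0.137 (interval 0.113 to 0.166) and 0.162 (0.146 to 0.180), so Idh1 was 6.70 times denser by the mean log2 ratio. On coding transcripts alone the log2 ratio of Idh2 over Idh1 was -4.27 in place of -2.74, as 34.2% of Idh2 footprints and all of those of Idh1 lay on such transcripts.

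The footprints of these enzymes were spread over many annotated transcripts. Protein coding transcripts held 74.3% ± 1.08 of them (SD, n = 2), transcripts annotated as retained intron 14.8% ± 0.805, nonsense-mediated decay targets 4.07% ± 0.126 and processed transcripts 6.76% ± 0.150. Over all genes with a coding transcript these shares were 80.3% ± 1.12, 9.90% ± 0.418, 4.12% ± 0.410 and 5.67% ± 0.291. Such transcripts share exons with the coding ones, so footprints of coding messages can be counted on them. The coding share was under 50% for 6 enzymes (Idh3g, Idh2, Eno2, Pgk1, Pfkp and Got1) and complete for 12, of which 7 have 1 annotated transcript. Across the 37 genes the coding share fell with the number of annotated transcripts, at Spearman's rho of -0.59. The 7 genes with 1 annotated transcript have a complete coding share by construction, so part of this relation follows from the annotation.

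**Figure D4:**
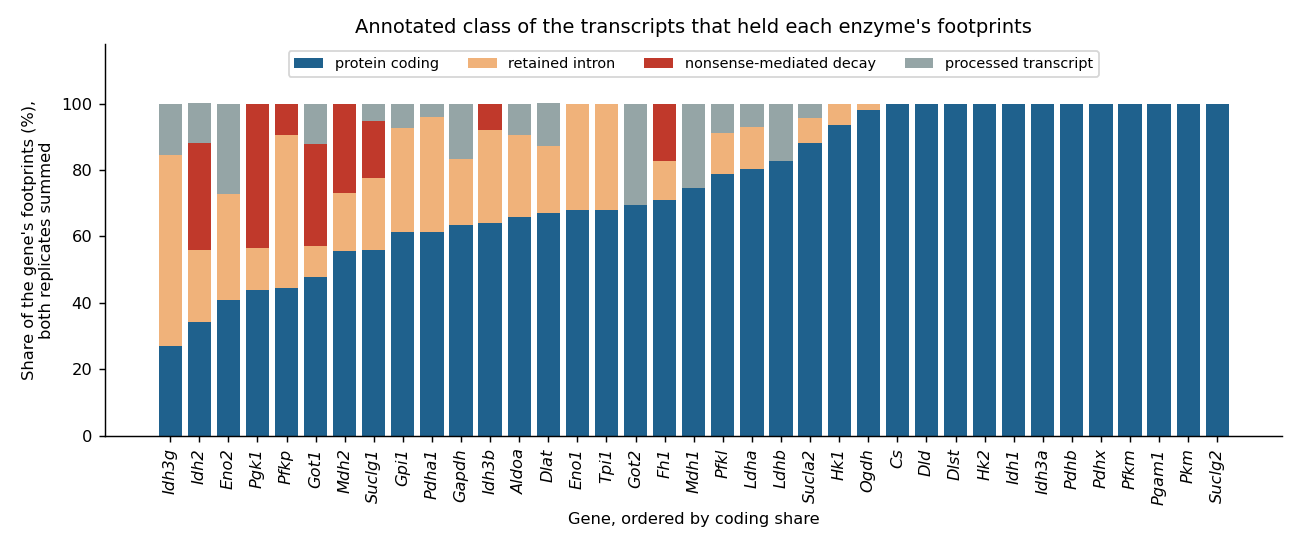
Share of each enzyme's footprints, in percent with both replicates summed, on transcripts annotated as protein coding, retained intron, nonsense-mediated decay target or processed transcript, with genes ordered by coding share. Idh3g had 26.9% on coding transcripts and 57.6% on transcripts annotated as retained intron, and the 12 genes at the right had all footprints on coding transcripts.

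Coding length was weakly related to footprint number. The longest coding sequences ran from 765 nucleotides for Pgam1 to 3105 for Ogdh. Across the 37 genes Spearman's rho between length and footprint number was -0.22, and 0.06 across the 13349 tested coding genes. Between length and density it was -0.58 and -0.45, with length in the denominator of density, so that part of this relation follows from the arithmetic. As genes are no replicates, the values only describe this pair of libraries.

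The replicates were then compared gene by gene with an exact binomial test against the ratio of library sizes scaled by TMM (trimmed mean of M values), with Benjamini-Hochberg adjustment over the 16427 genes whose counts averaged 10 or more. All 37 enzymes passed this minimum. An adjusted p under 0.05 was found for 20 of them, where 17.4% of all tested genes were called. They were lower in replicate 2 for 19, against 11.5% of all tested genes, and higher for 1, against 5.95%. The enzymes have high counts, which makes small differences detectable, and among tested genes averaging 100 or more footprints the shares were 29.8% called, 20.5% lower and 9.32% higher. The median log2 ratio of replicate 2 over replicate 1 was -0.22 over the 37 and 0.01 over all tested genes. The test covers counting noise between 2 libraries of the same group, so it says how far these libraries differ and nothing about a condition.

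Calls were found in most parts of the pathway, in unlike shares. Of the 14 glycolytic genes 9 were lower and 1 higher in replicate 2, or 71.4% called, with a median log2 ratio of -0.24. Over all tested genes 17.4% were called, 11.5% lower and 5.95% higher. Among those averaging 100 or more footprints these shares were 29.8%, 20.5% and 9.32%. Both lactate dehydrogenase genes were lower, and so were 5 of 12 TCA cycle genes and 2 of 3 shuttle genes, Mdh1 and Got2. Of the 5 genes of the pyruvate dehydrogenase complex, 1 was lower, Pdha1. Differences between these parts were not tested.

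The largest falls were those of Pgam1, Pkm, Cs and Mdh1. Their log2 ratios below are TMM-scaled, whereas CPM used library totals. With library totals the log2 ratios were -0.48 for Pgam1, -0.41 for Pkm, -0.40 for Cs and -0.38 for Mdh1. Pgam1 went from 219 CPM (interval 198 to 241) to 156 CPM (146 to 167), a log2 ratio of -0.61. With its named copies added the log2 ratio of Pgam1 was -0.53, so its first place rested on leaving them out. Pkm had 732 CPM (693 to 772) and 550.4 CPM (531 to 571), a log2 ratio of -0.54 (exact test, adjusted p = 2.93e-26). Both transcripts of Pkm were lower, at -0.55 and -0.52. Cs had 333 CPM (308 to 360.4) and 253 CPM (239.7 to 267), a log2 ratio of -0.52, and Mdh1 509 CPM (477 to 542) and 391 CPM (375 to 409), a log2 ratio of -0.50. These genes were picked for their differences between the same libraries. Each lay in the tenth of coding genes with the highest density, where 58.3% of genes were called. The intervals cover counting error only.

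Pfkp was the 1 enzyme that was higher in replicate 2. Its 169 footprints in replicate 1 and 805 in replicate 2 were 90.5 CPM (interval 77.4 to 105) and 153 CPM (143 to 164). The TMM-scaled log2 ratio was 0.63 (exact test, adjusted p = 2.07e-06). With library totals, which CPM uses, the log2 ratio of Pfkp was 0.75. All 12 of its transcripts that averaged 10 or more footprints had a log2 ratio above 0, from 0.17 to 1.29. Its partners Pfkl and Pfkm had log2 ratios of -0.40 (adjusted p = 0.00108) and -0.04 (adjusted p = 0.824) by the same exact test. With the highest transcript of each gene alone, Pfkp kept a log2 ratio of 0.75 but was no longer called (adjusted p = 0.0590, exact binomial test).

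The 17 enzymes that were not called had log2 ratios between -0.22 for Pdhb and 0.38 for Hk2. They included Hk1 at -0.06, Eno2 at -0.10, Idh1 at -0.09 and Ogdh at 0.03. For Hk2 the few footprints allowed just a coarse comparison.

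Footprint density moved with the replicate difference. Across the 37 enzymes Spearman's rho between density and log2 ratio was -0.61, and it was -0.26 across all tested coding genes. In the tenth of coding genes with the highest density, 58.3% were called with a median log2 ratio of -0.27, and of the 18 enzymes there 15 were called with a median of -0.31. When the trend with density was removed, 11 enzymes were called, 4 higher and 7 lower, of which 9 were among the 20, where 19.1% of 13349 genes were called, 1237 higher and 1310 lower. The 4 were Pfkp at 0.65, Idh1 at 0.22, Eno2 at 0.20 and Aldoa at 0.15, so that Aldoa turned from -0.30. Pkm, Cs, Pgam1, Mdh1, Got2, Pfkl and Dlst stayed lower, from -0.37 for Pgam1 to -0.16 for Mdh1. Scaling by TMM moved the log2 ratios of all genes by -0.13 from those under library totals. With library totals in place of TMM, 12 enzymes were called, 11 lower and 1 higher, where 3123 of 16427 genes were called and the balance over all genes turned, with 1896 higher and 1227 lower against 978 and 1883 under TMM. With the dispersion between the libraries allowed for, edgeR's exact test called 0 of the 37 and 11 of all tested genes. An unadjusted p under 0.05 in that test was found for 0 of the 37 and for 719 of the 16427 tested genes. The dispersion of the test came from the same pair of libraries.

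Markers of cell types also differed between the libraries. All 6 neuronal markers had log2 ratios below 0, with a median of -0.38. Of them 4 were called lower, against 11.5% of all tested genes and 20.5% of those averaging 100 or more footprints. All 6 lay in the tenth of coding genes with the highest density, where the median was -0.27 and 58.3% were called in either direction. All 5 oligodendrocyte markers were above 0, with a median of 0.47 and 3 called higher, against 5.95% and 9.32%. Astrocyte markers had a median of -0.13 with 1 of 5 called lower. Of 3 red cell markers 2 were called lower, Hbb-bs at -0.69 and Hba-a1 at -0.59, while Alas2 was at 0.54 and not called. Also called lower was 1 each of 3 endothelial markers (Cldn5 at -0.91), 3 microglial markers (C1qa at -0.64) and 2 tested muscle markers (Acta1 at -0.70). The others on these lists were not called, namely Flt1 at 0.43 and Pecam1 at -0.07 for endothelium, and Csf1r at -0.08 and Cx3cr1 at -0.29 for microglia. For muscle, Myh3 was at 1.97 with 1 and 20 footprints. The red cell, endothelial and muscle lists were thus split in direction. The part of cell composition in the enzyme differences was not tested.

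**Figure D5:**
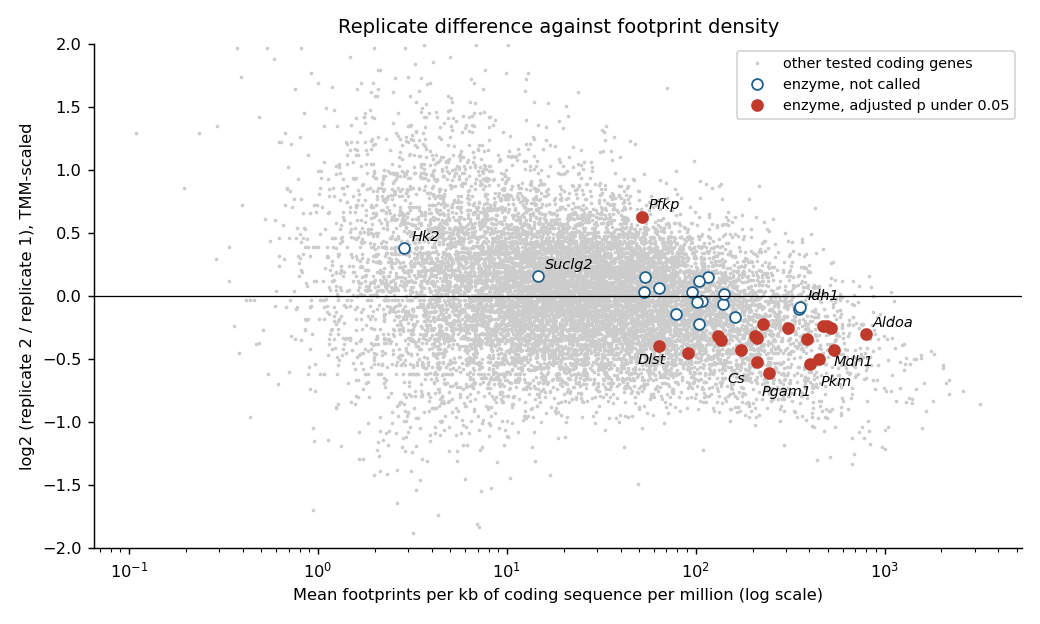
The log2 ratio of replicate 2 over replicate 1 (TMM-scaled) against mean footprint density (log scale), with the 37 enzymes as circles, filled where called, and the other tested coding genes in grey; 34 genes lie beyond the axis limits of -2 and 2. Pfkp stood above 0 at 0.63, and 19 filled circles lay below 0, most of them at high density.

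Transporters, regulators and neighbouring enzymes of these pathways were given as lists of 50 genes, of which 46 reached the minimum count. The exact binomial test called 11 of the 46, 2 higher and 9 lower in replicate 2, or 23.9% against the 17.4% of all tested genes and the 29.8% of those averaging 100 or more footprints, and the median log2 ratio of the 46 was -0.07. In the list of further genes of the TCA cycle 4 of 10 were lower, against 11.5% of all tested genes and 20.5% of those averaging 100 or more footprints, namely Glud1, glutamate dehydrogenase, at -0.34, and the succinate dehydrogenase subunits Sdhb at -0.27, Sdhc at -0.55 and Sdhd at -0.61. In the pentose phosphate pathway, which makes NADPH and ribose, 4 of 7 were lower, against the same shares, with Pgd at -0.33, Pgls at -0.36, Tkt at -0.36 and Taldo1 at -0.46. Of 13 tested genes for glucose and lactate transport and control of glycolysis, 2 were higher. The shares called higher were 5.95% of all tested genes and 9.32% of those averaging 100 or more footprints. The 2 were Pfkfb2 at 0.86, which sets the activator of phosphofructokinase, and the lactate and pyruvate transporter Slc16a7 at 0.78. Of 11 tested genes of pyruvate entry and its control 1 was lower, or 9.09%, below the 11.5% of all tested genes. It was Mpc2 of the mitochondrial pyruvate carrier, at -0.30. Of the 5 mitochondrial carriers 0 were called by the exact binomial test and 0 had an unadjusted p under 0.05, with log2 ratios from -0.19 to 0.74.

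In density these called neighbours lay within the range of the 37. Sdhb reached 243 ± 16.9 (SD, n = 2), Sdhc 390.0 ± 79.8 and Sdhd 198 ± 46.6, and Glud1, which feeds glutamate into the cycle, 193 ± 20.5. Mpc2 had 335 ± 28.0, above the 212 ± 20.9 of Pdha1. Slc16a7, at 37.2 ± 16.1, and Pfkfb2, at 14 ± 6.62, were low and had wide spreads.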

How the data were processed

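The authors deposited a table of whole-number footprint counts per transcript for 2 samples, not normalized, with annotated lengths. The submitters' processing notes name Trimmomatic 0.36, Bowtie2 2.2.6, SAMtools and genome build GRCm38.p4; annotation release, use of strand, and handling of duplicates and of fragments with several matches are not given in the sources used here. Counts were summed per gene over its transcripts. CPM and density used library totals, and the longest coding sequence gave the length. TMM factors (edgeR 4.0.16, on genes averaging 10 or more footprints) were 0.957 and 1.04. Replicates were compared with exact binomial tests (scipy 1.17.1), Benjamini-Hochberg adjusted, called at 0.05, and log2 ratios used a prior of 0.5 CPM. With 1 group there was no contrast for a quasi-likelihood fit. The scripts were tested on simulated data. Alternatives were DESeq2 1.42.0 size factors, library totals, no filter, edgeR's exact test, coding or highest transcripts, other lengths and a pseudocount. The members and lists were chosen with earlier results of these data known. All enzymes, all tissue-restricted isozymes and other list genes that were called were named, as were copies with a member's symbol; copies matched through RefSeq synonyms (GRCm38.p6), the Tpi-rs copies, subunit ratios and the markers named singly were chosen after values were seen. Some genes related to the members are not reported here. No coordinates or sequences are given.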

Additional observations from a re-analysis of the deposited data

How the results depend on the processing

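The trend with density, added copies and subunit ratios were added after the data were examined. No paired analysis was possible because both samples belong to 1 group, and leaving out a library leaves no replicate comparison. Against 20 calls among the 37 enzymes, 12 were made with library totals and 11 with the highest transcript. Another 2 settings gave 11 calls with the density trend removed and 0 with edgeR's exact test. Calls over all tested genes also changed, from 17.4% to 9.41% (1444 of 15353) with the highest transcript. They were 3123 of 16427 with library totals, 19.1% of 13349 with the density trend removed and 11 of 16427 with edgeR's exact test. With the density trend removed, log2 ratios turned for Aldoa (0.15), Gapdh (0.12), Pgk1 (0.01), Eno1 (0.12), Ldha (0.12) and Ldhb (0.03). DESeq2 size factors gave 19 calls (17.4% of all tested genes), coding transcripts 18 (18.2%), and no filter and added copies 20 each (9.93% and 17.4%). The enzymes' share moved to 1.12% with added copies. Leaving out 1 replicate gave log2 ratios from -0.86 to 0.17 for Pfkp over Pfkl, -0.03 to 0.22 for Got2 over Got1, -0.13 to 0.25 for Idh3g over Idh3b and -0.15 to 0.32 for Ogdh over Dlst. On coding transcripts alone the log2 ratios of the isozymes were -1.17 for Pfkp over Pfkl, 1.09 for Pfkm over Pfkl, -1.05 for Aldoc over Aldoa, -1.20 for Eno2 over Eno1, -0.71 for Ldhb over Ldha, 2.63 for Sucla2 over Suclg2, -0.16 for Mdh2 over Mdh1, 0.66 for Got2 over Got1 and -4.27 for Idh2 over Idh1. In that setting the subunits gave -0.62 for Suclg1 over both beta chains, 0.60 for Idh3a over Idh3b, -1.17 for Idh3g over Idh3b, 0.33 for Pdha1 over Pdhb and -0.22 for Dlat over Pdhx. With the highest coding transcript over its own length they were 4.56 for Hk1 over Hk2, -2.40 for Pfkp over Pfkl, 0.08 for Pfkm over Pfkl, -0.01 for Aldoc over Aldoa, -0.95 for Eno2 over Eno1, 0.31 for Ldhb over Ldha, 1.65 for Sucla2 over Suclg2, -0.51 for Mdh2 over Mdh1 and 0.66 for Got2 over Got1. The subunits then gave 0.18 for Suclg1 over both beta chains, 0.60 for Idh3a over Idh3b, -1.17 for Idh3g over Idh3b, 0.33 for Pdha1 over Pdhb, 0.44 for Dlat over Pdhx and -1.93 for Ogdh over Dlst. A count-weighted coding length gave -1.30 for Aldoc over Aldoa, -0.73 for Ldhb over Ldha, 2.86 for Sucla2 over Suclg2, 0.36 for Mdh2 over Mdh1, -3.09 for Idh2 over Idh1, -0.05 for Suclg1 over both beta chains and -0.09 for Dlat over Pdhx. Added copies gave -1.0 for Aldoc over Aldoa, -0.82 for Eno2 over Eno1, -0.74 for Ldhb over Ldha and 0.62 for Got2 over Got1. A pseudocount of 1 moved no ratio beyond its SD. The causes were not tested, except that the highest transcript holds fewer footprints of genes with many transcripts by construction. Counts of the low genes, such as Hk2 and Suclg2, limit their precision.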
